A study of Mus musculus with 12 samples.

Results

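The fast-fibre contractile isoforms are the 10 genes Myh4, Myh1, Myh2, Tnnt3, Tnni2, Tnnc2, Mylpf, Myl1, Actn3 and Mylk2, which were taken by symbol from a table of 24528 genes. All 10 were in the table, and all 10 passed the filter on low values that left 12219 genes for testing. RNA was measured in bulk gastrocnemius, a calf muscle, of 6 KO and 6 WT male mice aged 4 months, 1 library per mouse. KO mice carried the genotype Ank2f/f; HSA-Cre+, that is, floxed alleles of the ankyrin-B gene Ank2 with a Cre transgene whose actin promoter is active in skeletal muscle, and WT mice carried Ank2f/f alone. Both groups therefore held the floxed alleles, no group had Cre without them, and Ank2 in vessels, nerve and connective tissue of the same muscle was not targeted. The mice were littermates that shared cages. The comparison asks whether transcripts of the fast contractile apparatus differ when muscle fibres lack ankyrin-B.

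Fast-twitch fibres are built from their own set of sarcomere proteins. Myosin heavy chains form the motor, and in limb muscle of mice the isoforms IIb (Myh4), IIx (Myh1) and IIa (Myh2) mark fast fibres in the order of falling shortening speed and rising oxidative capacity. The essential and regulatory light chains (Myl1, Mylpf) stiffen and tune the motor's lever arm. Troponin T, I and C (Tnnt3, Tnni2, Tnnc2) switch the thin filament on when calcium rises, alpha-actinin-3 (Actn3) cross-links actin at the Z-disc, and Mylk2 encodes the skeletal muscle kinase that phosphorylates the regulatory light chain.

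The 3 fast heavy chain genes lie side by side on chromosome 11 of mm10, all on the plus strand. Myh2 spans 67171027 to 67197517, Myh1 spans 67200052 to 67224575 and Myh4 spans 67238029 to 67260446. Their coding sequences were 90.2% identical between Myh4 and Myh1, 88.2% between Myh4 and Myh2, and 91.1% between Myh1 and Myh2. The following stretch had the most differences of any 60 aligned coding positions, 26 of 60, and is shown for that reason. Gaps in the alignment count as differences and are left out of the lines below, and untranslated regions were not aligned. The stretch starts at coding base 1864 of each transcript (GENCODE M21) and encodes part of the surface loop of the motor domain called loop 2. Capitals mark positions at which the 3 genes are not all alike.
Myh4: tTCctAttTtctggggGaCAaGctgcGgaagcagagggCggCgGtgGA
Myh1: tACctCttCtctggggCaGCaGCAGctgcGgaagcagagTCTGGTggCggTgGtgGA
Myh2: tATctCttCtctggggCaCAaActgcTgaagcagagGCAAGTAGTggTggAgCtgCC
Some other stretches are harder to assign to a single gene. Of all 100-base stretches, 14.7% of those in the Myh1 transcript, 11.2% of those in Myh2 and 3.85% of those in Myh4 also occurred in a transcript of another gene, and at 150 bases, the shorter end of the fragment range in the labels' protocols, the shares were 6.22%, 3.59% and 0.511%. Stretches were matched on either strand, so the other genes include antisense RNA genes as well as heavy chain genes. Exons of the antisense gene Myhas overlap 515 exon bases of Myh1, and those of 9430073C21Rik overlap 237 of Myh2. The shares were not split between these kinds of gene. How reads shared between genes of this locus were assigned is not given in the sources used here.

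Each heavy chain gene has its own promoter, and the 3 promoters share a run of 20 bases. It is shown because these neighbouring genes differ widely in level, as given further on. The sequences are those of RefSeq (GRCm38.p6), from 250 bases before to 50 bases after the start of the gene, on the plus strand, at chr11:67237562-67237861 for Myh4, chr11:67199852-67200151 for Myh1 and chr11:67170777-67171076 for Myh2, and capitals mark the shared run.
Myh4: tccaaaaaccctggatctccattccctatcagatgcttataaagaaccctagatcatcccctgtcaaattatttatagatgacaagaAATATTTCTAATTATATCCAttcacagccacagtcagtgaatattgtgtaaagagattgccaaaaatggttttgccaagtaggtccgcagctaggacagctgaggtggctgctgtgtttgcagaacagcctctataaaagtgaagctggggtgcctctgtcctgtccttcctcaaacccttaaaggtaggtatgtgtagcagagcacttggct
Myh1: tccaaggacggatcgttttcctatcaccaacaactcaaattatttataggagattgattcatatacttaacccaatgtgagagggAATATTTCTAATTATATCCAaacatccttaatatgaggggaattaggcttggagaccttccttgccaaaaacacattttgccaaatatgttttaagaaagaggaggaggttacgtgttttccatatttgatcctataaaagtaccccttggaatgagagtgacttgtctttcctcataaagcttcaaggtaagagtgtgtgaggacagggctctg
Myh2: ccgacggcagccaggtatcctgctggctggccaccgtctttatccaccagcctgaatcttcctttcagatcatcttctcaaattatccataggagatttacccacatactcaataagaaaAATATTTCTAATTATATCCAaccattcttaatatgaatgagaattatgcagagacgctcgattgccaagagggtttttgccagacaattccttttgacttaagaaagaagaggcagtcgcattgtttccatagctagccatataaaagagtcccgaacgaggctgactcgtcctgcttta
The run begins 163 bases before the RefSeq start of Myh4, 165 before that of Myh1 and 130 before that of Myh2. For Myh4 and Myh1 the RefSeq start differs from the start of the gene span given above, which is from GENCODE M21. Among 32851 mouse promoters of this length the run occurred, on either strand, in these 3 alone. The letters TATAAA stood in all 3 windows, against 13.6% of all promoters, and the MEF2 motif, named for a family of muscle transcription factors, had a match in the windows of Myh4 and Myh1, against 3.2% of all promoters. The E-box CANNTG had 3 matches in the Myh4 window and none in those of Myh1 and Myh2, against 72.3% of promoters with at least 1. Motifs were searched on both strands, and matches may overlap. Promoters of 6 of the 10 genes could be matched.

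Depth was estimated from the step between low values at 12278221 to 18720981 reads per library. Ank2 itself, in the deposited log2 values used throughout, lay between 7.54 and 8.03 in KO libraries and between 8.40 and 9.22 in WT libraries. KO 2, with Ank2 at 7.63, stood nearer to WT than the other KO libraries did for Mylk2, Myh8 and 2310065F04Rik, described further on. Markers of striated muscle were abundant in both groups, with the skeletal actin gene Acta1 at 19.11 ± 0.07 in KO and 19.00 ± 0.19 in WT (SD, n = 6 each). No marker of endothelial, Schwann, tendon, macrophage or satellite cells was called. All 6 Schwann markers had negative estimates, and all 6 tendon and all 5 macrophage markers had positive ones. Of 3 adipocyte markers tested 1 fell and none rose, against 3.08% and 3.12% of all tested genes. Adipoq fell by 0.34 (limma adjusted p = 0.043). This call was lost on leaving out any 1 of 7 libraries (KO 3, KO 4, KO 6, WT 1, WT 2, WT 3 or WT 5, adjusted p up to 0.107). It was also lost in limma-voom (adjusted p = 0.0529) and with libraries centred on their median (adjusted p = 0.0501). The part of these cell types in the results was not tested. In bulk tissue, fewer fibres of a type and less RNA per fibre cannot be told apart.

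Together the 10 genes made up 17.8% ± 0.578 of all scaled reads in KO and 17.7% ± 1.16 in WT (SD, n = 6 each; exact permutation p = 0.805). Myh4 alone held 8.99% ± 1.03 in KO and 9.45% ± 0.772 in WT. Levels between genes are compared as scaled reads per kilobase of exon, counting all annotated exons of a gene. This length can exceed that of the longest coding transcript, with 1583 against 1079 bases for Tnnt3, 1497 against 768 for Tnni2 and 2074 against 1082 for Myl1. Places in the order therefore depend on the length used. By length of all exons the order was the same in both groups, led by Tnnc2 with 289600 ± 40920 in KO and 252500 ± 60150 in WT, then Tnnt3, Myh4, Mylpf, Myl1, Tnni2 and Actn3, and the lowest were Myh1, Mylk2 and Myh2. Myh4 had 224000 ± 33780 in KO and 238600 ± 29580 in WT, so that its mean ± SD overlapped those of Tnnc2 and Tnnt3. Myl1 and Tnni2 also overlapped in both groups, with 99160 ± 8363 and 87000 ± 9992 in KO and 85840 ± 17150 and 78350 ± 15310 in WT. Myh1 had 5567 ± 2836 in KO and 7374 ± 3473 in WT, Mylk2 had 3756 ± 728 in KO and 5680 ± 1197 in WT, and Myh2 had 2005 ± 1441 in KO and 4684 ± 2549 in WT. The spreads of Myh1, Mylk2 and Myh2 overlapped, so their order is loose, whereas Actn3, the next above them, stood at 53230 ± 5553 in KO and 55230 ± 9964 in WT.

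**Figure D1:**
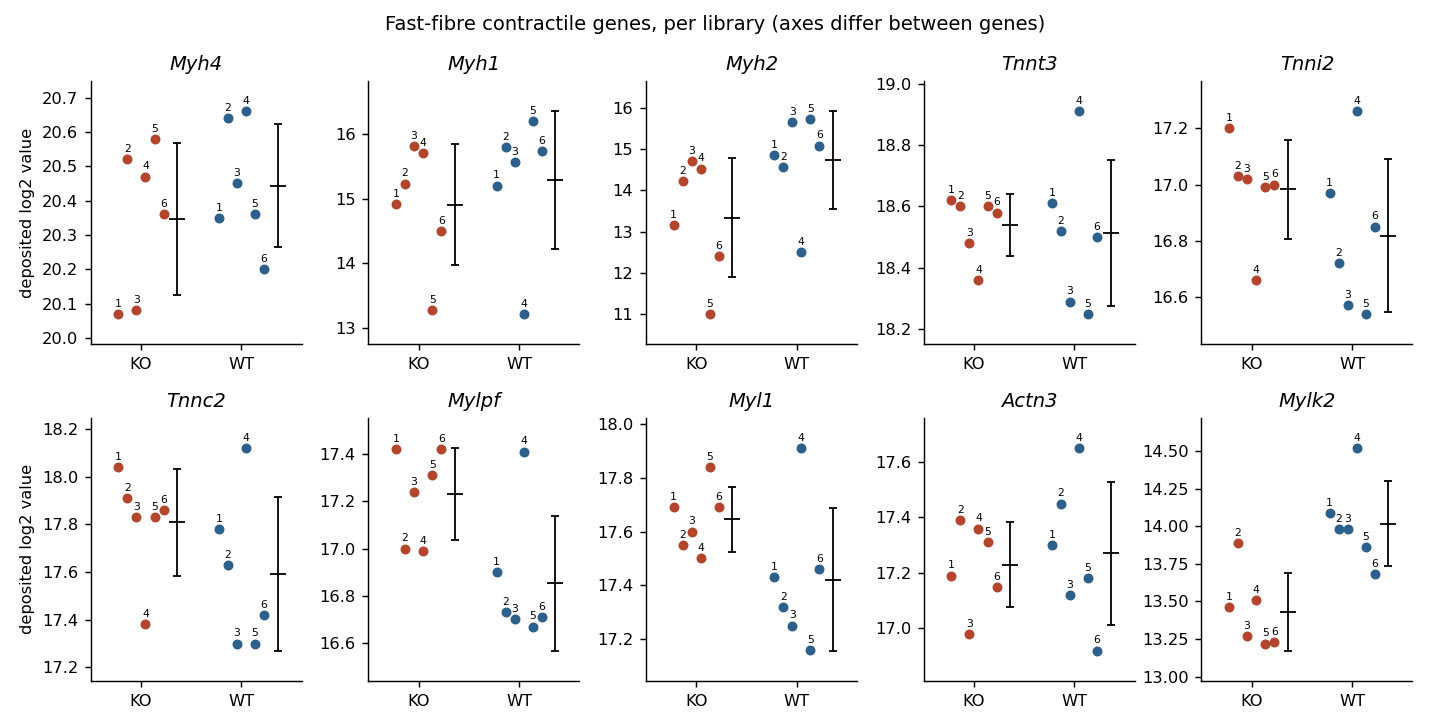
Deposited log2 value of each of the 10 genes in the 6 KO and 6 WT libraries; numbers are replicate numbers, and the bar beside each group is the mean ± SD. Mylk2 is low in every KO library except KO 2, while Myh1 is lowest in KO 5 and WT 4, and Myh2 in KO 5, KO 6 and WT 4.

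Of the 10 genes, 1 was called, Mylk2, which was lower in KO (limma, Benjamini-Hochberg adjusted p over 12219 genes at or under 0.05), and none was called higher. Of all tested genes 3.08% were called lower and 3.12% higher, 6.2% in all, so 1 call among 10 genes stands near the background. None of the 10 had groups without overlap, which 2.47% of all tested genes had, 1.27% with KO above and 1.2% with KO below. The median change of the 10 was -0.01 on the log2 scale, the same as the median of -0.01 over all tested genes, with 5 estimates above 0 and 5 below. The estimates ran from -1.40 for Myh2 to 0.38 for Mylpf. All changes are KO minus WT, and SE is the limma standard error.

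**Figure D2:**
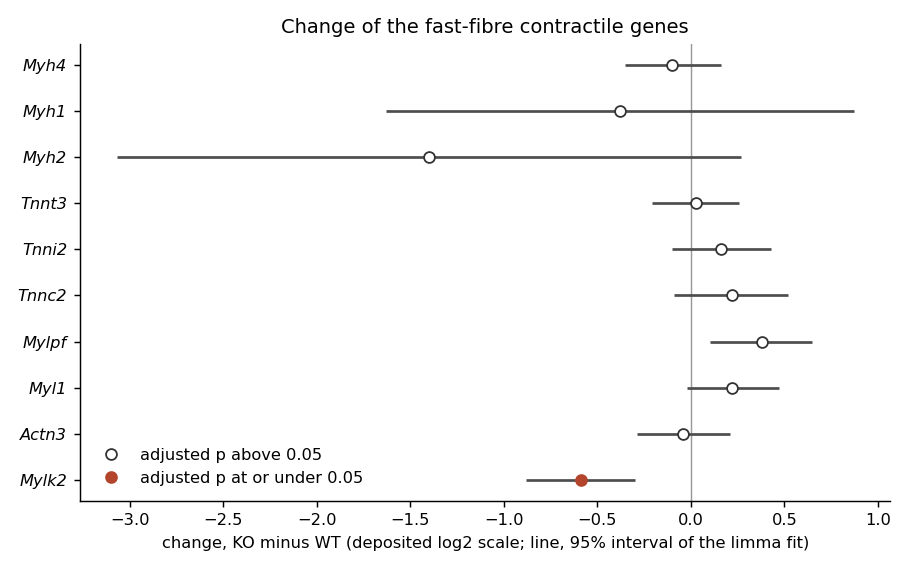
Change of each gene, KO minus WT, on the deposited log2 scale, with the 95% interval of the limma fit. The filled point marks Mylk2 at -0.59, the only one of the 10 at or under an adjusted p of 0.05, and the widest intervals are those of Myh1 and Myh2.

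Among the heavy chains, Myh4, the most abundant here, did not differ detectably. Its log2 value had a lowest, median and highest of 20.07, 20.42 and 20.58 in KO libraries and 20.20, 20.41 and 20.66 in WT libraries. The groups overlapped over most of their range, with KO 1 and KO 3 below every WT library. The change was -0.10 (SE 0.12, limma adjusted p = 0.641), with a 95% interval from -0.35 to 0.16.

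Myh1, the IIx heavy chain, ran from 13.28 through a median of 15.07 to 15.81 in KO libraries and from 13.22 through 15.65 to 16.20 in WT libraries. The groups overlapped almost fully, and 1 library in each, KO 5 and WT 4, lay far below the rest. The change was -0.38 (SE 0.56, limma adjusted p = 0.704), and its interval from -1.63 to 0.87 leaves room for a large change in either direction. The estimate was -0.05 without KO 5 and -0.79 without WT 4.

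Myh2, the IIa heavy chain, had the largest estimate of the 10 genes but also the widest spread. Its lowest, median and highest were 11.00, 13.69 and 14.72 in KO libraries and 12.51, 14.97 and 15.74 in WT libraries. KO 5 and KO 6 lay below every WT library, and WT 4 lay below 4 of the 6 KO libraries. The change of -1.40 (SE 0.75) had a limma adjusted p of 0.269 and an interval from -3.07 to 0.27, and it was -0.93 without KO 5 and -1.84 without WT 4. In scaled reads KO libraries held 42.8% ± 30.8 of what WT libraries averaged (SD, n = 6).

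As shares of the reads of the 3 fast heavy chains, Myh4 made up 96.3% ± 2.21 in KO and 94.6% ± 2.68 in WT, Myh1 made up 2.62% ± 1.44 in KO and 3.16% ± 1.54 in WT, and Myh2 made up 1.05% ± 0.786 in KO and 2.27% ± 1.26 in WT (SD, n = 6 each). The Myh2 share had a lowest, median and highest of 0.124%, 1.01% and 2.26% in KO libraries and 0.343%, 2.40% and 3.69% in WT libraries. None of the 3 shares passed an exact two-sided permutation test, with p of 0.247 for Myh4, 0.539 for Myh1 and 0.0779 for Myh2, or 0.370, 0.539 and 0.234 adjusted over the 3.

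The balance between the 2 minor fast heavy chains did differ. The log2 ratio of Myh1 to Myh2 reads (with a pseudocount of 1) had a lowest, median and highest of 1.01, 1.46 and 2.33 in KO libraries and -0.10, 0.55 and 1.23 in WT libraries. The KO libraries lay above 5 of the 6 WT libraries, and WT 2, at 1.23, lay above KO 2, KO 3 and KO 4. The mean was 1.58 ± 0.569 in KO and 0.549 ± 0.442 in WT (SD, n = 6 each), a difference of 1.03 (exact permutation p = 0.00866; adjusted p = 0.026 over the 3 heavy chain ratios). A ratio within a library does not depend on how libraries were scaled to each other. The call ended without WT 1, WT 3, WT 5 or WT 6 (exact permutation, adjusted p from 0.0584 to 0.0649), although the difference stayed between 0.88 and 1.17 whichever library was left out. Myh1 and Myh2 share more long stretches with other transcripts than Myh4 does, as given above, and the part of shared reads in this ratio was not tested. The ratios of Myh4 to Myh1 (difference 0.285, exact permutation p = 0.626) and of Myh4 to Myh2 (1.31, exact permutation p = 0.147) did not pass, and the second passed without WT 4 (difference 1.81, exact permutation, adjusted p = 0.0487).

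**Figure D3:**
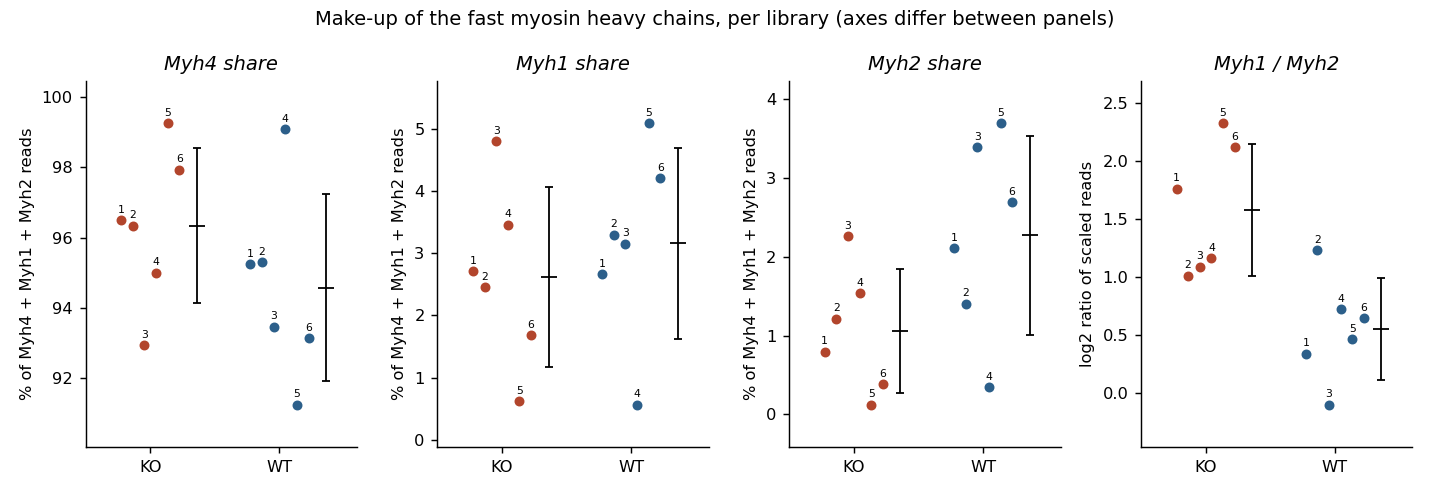
Share of Myh4, Myh1 and Myh2 among the reads of the 3 fast heavy chains (percent) and the log2 ratio of Myh1 to Myh2 reads in each library; numbers are replicate numbers and bars are mean ± SD. The Myh1 to Myh2 ratio averages 1.58 in KO and 0.549 in WT, while the shares overlap between groups.

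Of 6 other heavy chain genes tested 1 rose and none fell, against 3.12% and 3.08% of all tested genes, with a median change of -0.38. Myh8, the perinatal heavy chain, lies next to Myh4 and was higher in KO (change 1.18, SE 0.30, limma adjusted p = 0.0416). It had a lowest, median and highest of 6.51, 8.03 and 8.46 in KO libraries and 6.31, 6.65 and 6.97 in WT libraries, and KO 2 was the KO library within the WT range. The call depended on single libraries, since it held without KO 2 and was lost without any other library (adjusted p up to 0.0982), and it was lost in limma-voom (adjusted p = 0.108). Myh3, the embryonic heavy chain, gave 0.86 (SE 0.28, adjusted p = 0.0921), and Myh13, the extraocular one, named for its place in the cluster, gave -0.08 (SE 0.23, adjusted p = 0.859). Outside this cluster, the cardiac heavy chain gene Myh6 gave -0.69 (SE 0.20, adjusted p = 0.0598) and the slow heavy chain gene Myh7 gave -3.37 (SE 1.25, adjusted p = 0.128).

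The long noncoding RNA gene 2310065F04Rik, on the minus strand between Myh3 and Myh2 from 67112461 to 67120080, fell in KO. It is described in mouse as an RNA of the fast heavy chain locus and was added for its position, outside the lists. Its log2 value had a lowest, median and highest of 9.25, 9.69 and 11.11 in KO libraries and 10.84, 11.28 and 11.45 in WT libraries. Every KO library but KO 2 lay below all WT libraries, and KO 2 at 11.11 lay inside their range. The change was -1.34 (SE 0.26, limma adjusted p = 0.0183), which left KO libraries with 40.7% ± 25.8 of the WT average in scaled reads (SD, n = 6). The adjusted p was 1.57e-06 without KO 2 and 0.0501 without KO 6, the 1 library whose omission ended the call.

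**Figure D4:**
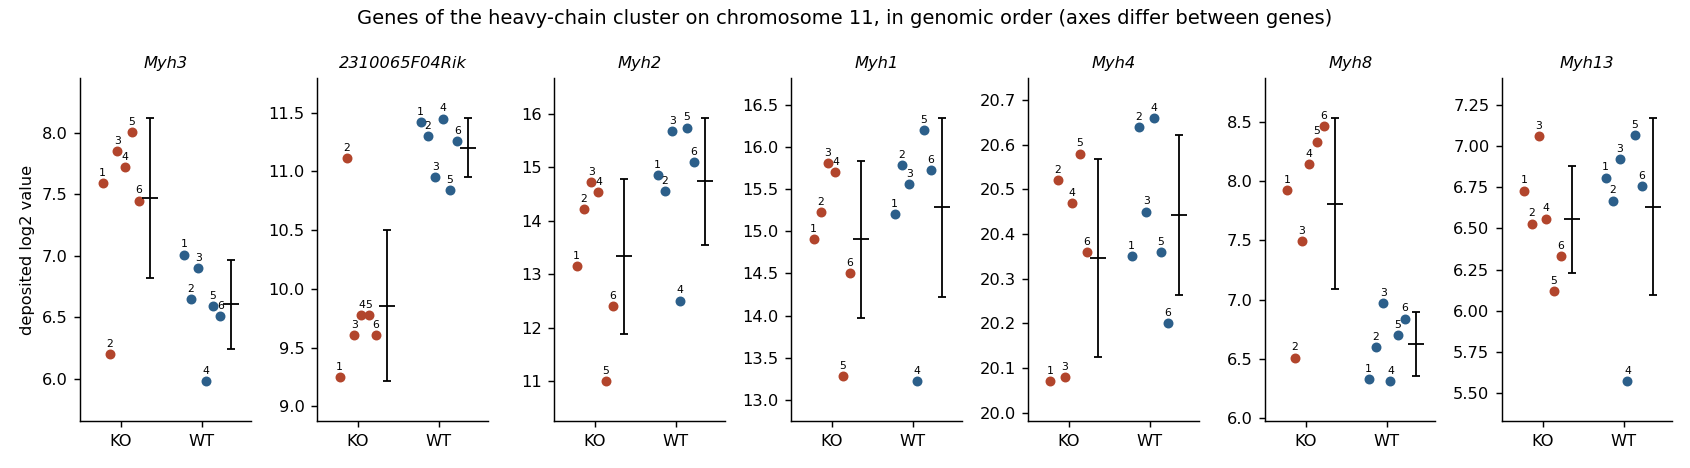
Deposited log2 values of the genes of the heavy chain cluster in their order along chromosome 11, in 6 KO and 6 WT libraries; numbers are replicate numbers and bars are mean ± SD. 2310065F04Rik is lower and Myh8 higher in every KO library except KO 2, while Myh4 overlaps between groups.

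The light chain genes had positive estimates, and neither passed the test over all libraries. Mylpf, on chromosome 7 from 127208890 to 127214298, encodes the fast regulatory light chain. Its lowest, median and highest were 16.99, 17.28 and 17.42 in KO libraries and 16.67, 16.72 and 17.41 in WT libraries. All 6 KO libraries lay above 5 of the WT libraries, and WT 4 at 17.41 lay at the top of the KO range. The change was 0.38 (SE 0.13, limma adjusted p = 0.0894), or 0.49 with an adjusted p of 0.0122 without WT 4. Myl1, on chromosome 1 from 66924295 to 66945404, encodes the fast essential light chains. It had 17.50, 17.64 and 17.84 in KO libraries and 17.16, 17.38 and 17.91 in WT libraries as lowest, median and highest, and WT 4 at 17.91 stood above all KO libraries. Its change was 0.22 (SE 0.12, limma adjusted p = 0.236), or 0.32 with an adjusted p of 0.0404 without WT 4.

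The 3 troponin genes of fast fibres did not pass the test. Tnnc2, the calcium-binding subunit, had a lowest, median and highest of 17.38, 17.85 and 18.04 in KO libraries and 17.30, 17.53 and 18.12 in WT libraries. KO 4 lay apart below the other KO libraries and WT 4 above all others, and the change was 0.22 (SE 0.14, limma adjusted p = 0.353). Annotated exons of Ube2c overlap 74% of the exon bases of Tnnc2, and the libraries do not mark strand. Ube2c was between 5.57, the floor of the table, and 6.30 in every library. How reads in the overlap were assigned is not known, and its part in the Tnnc2 values was not tested. Tnni2, the inhibitory subunit, gave 0.16 (SE 0.12, limma adjusted p = 0.417), with values from 16.66 to 17.20 in KO and from 16.54 to 17.26 in WT. Tnnt3, the tropomyosin-binding subunit, gave 0.03 (SE 0.11, limma adjusted p = 0.899), with values from 18.36 to 18.62 in KO and from 18.25 to 18.91 in WT. Tnni2 and Tnnt3 are near neighbours on chromosome 7, at 142441808 to 142444410 and 142498836 to 142516009. The direction of Tnnt3 turned to -0.02 without WT 3 or WT 5 and to -0.05 after a correction for exon length.

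The estimates of the short genes among the 10 went with a trend over all genes. The median change of the 229 tested genes with under 1000 exon bases was 0.12, against -0.08 for the 2239 genes of 8000 bases and over. Tnnc2 has 800 exon bases, Mylpf 1062, Tnni2 1497 and Tnnt3 1583, whereas Myh4 has 6016, Myh1 6353 and Myh2 7137. After a correction for this trend the estimates were 0.08 for Tnnc2, 0.08 for Tnni2 and 0.26 for Mylpf, against 0.22, 0.16 and 0.38 without it. Tnnt3 went from 0.03 to -0.05, and Myl1, with 2074 exon bases, went from 0.22 to 0.17. The corrected estimate of Mylk2 was -0.61 (limma adjusted p = 0.0185), and no call on the 10 genes changed.

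Actn3, the Z-disc protein of fast fibres, did not differ detectably. Its lowest, median and highest were 16.98, 17.25 and 17.39 in KO libraries and 16.92, 17.24 and 17.65 in WT libraries, and the groups overlapped throughout. The change was -0.04 (SE 0.12, limma adjusted p = 0.857), with an interval from -0.29 to 0.21, and it turned to 0.01 without KO 3 and to 0.04 without WT 4. Among 11 of its partners at the Z-disc, 1 rose and 1 fell, against 3.12% and 3.08% of all tested genes. Pdlim3, which encodes a PDZ-LIM protein that binds alpha-actinin, rose by 0.62 (SE 0.15, limma adjusted p = 0.0277), and Pdlim5, a related gene, fell by 0.34 (SE 0.10, limma adjusted p = 0.0482). Without 1 library the Pdlim3 call was lost for 7 libraries (KO 1, KO 3, KO 6, WT 2, WT 3, WT 5 and WT 6; adjusted p up to 0.0709), and the Pdlim5 call was lost for all but KO 2 and KO 5 (up to 0.113), with libraries centred on their median (0.0526), with no filter (0.0556) and after the length correction (0.0716). The median change of the 11 was -0.14.

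Mylk2, the gene of skeletal muscle myosin light chain kinase, was the member that fell. It lies on the plus strand of chromosome 2 from 152911352 to 152923068. Its lowest, median and highest were 13.22, 13.36 and 13.89 in KO libraries and 13.68, 13.98 and 14.52 in WT libraries. The 5 KO libraries KO 1, KO 3, KO 4, KO 5 and KO 6 lay below every WT library, and KO 2 at 13.89 lay inside the WT range. The change was -0.59 (SE 0.14, limma adjusted p = 0.0244), with a 95% interval from -0.88 to -0.30, and KO libraries held 66.1% ± 12.8 of the WT average in scaled reads (SD, n = 6). No stretch of 50 bases of the Mylk2 transcript occurred in a transcript of another gene, and its exons overlap no other annotated gene. The change was between -0.68 and -0.49 whichever library was left out, and the call ended without KO 3, KO 6, WT 2 or WT 3 (adjusted p from 0.0539 to 0.0647).

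Of 15 genes listed for myosin phosphorylation 14 were tested, all but Mylk3, and 2 fell and none rose, against 3.08% and 3.12% of all tested genes. Estimates were negative for 11 of the 14, with a median change of -0.18, against 6403 of 12219 tested genes and a median of -0.01. Ppp1cb, the catalytic subunit of myosin phosphatase, which removes the phosphate that Mylk2 adds, fell by 0.43 (SE 0.10, limma adjusted p = 0.0263). Its KO libraries ran from 11.98 to 12.62 and its WT libraries from 12.72 to 12.92, without overlap, as in 1.2% of all tested genes in that direction. The phosphatase targeting subunit gene Ppp1r12a gave -0.26 (SE 0.08, adjusted p = 0.06). The Ppp1cb call ended without KO 3, KO 6, WT 2, WT 3 or WT 5 (adjusted p up to 0.0644).

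Mylk, the kinase gene of smooth muscle and other non-striated cells, fell by 0.38 (SE 0.10, limma adjusted p = 0.0375). Of 6 smooth muscle markers 5 were tested, and 1 fell and none rose, against 3.08% and 3.12% of all tested genes. The smooth muscle heavy chain gene Myh11 was the 1 that fell, by 0.54 (SE 0.14, limma adjusted p = 0.0419). Acta2, Tagln, Lmod1 and Cnn1 had estimates from -0.46 to -0.22 and did not pass, and Actg2 was not tested, with values from the floor to 6.11. Their summed level ran from 1066 to 1144 scaled reads in KO libraries and from 1131 to 2199 in WT libraries, and their part in the change of Mylk was not tested. The Mylk call was lost without 7 single libraries (KO 1, KO 5, KO 6, WT 1, WT 2, WT 3 and WT 5) and the Myh11 call without 8 (KO 1, KO 3, KO 5, KO 6, WT 1, WT 2, WT 3 and WT 5), with adjusted p up to 0.0926 and 0.0985. Both were also lost on reads scaled by the library total (adjusted p = 0.0614 and 0.0613), in limma-voom (0.074 and 0.0679) and after the length correction (0.0567 and 0.0531).

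Other genes of the fast fibre showed no call. None of 13, among them the muscle phosphoglycerate mutase gene Pgam2 (0.24, adjusted p = 0.172), the calcium buffer gene Pvalb (0.31, adjusted p = 0.157) and the adenosine monophosphate deaminase gene Ampd1 (-0.31, adjusted p = 0.132), passed the test, and their median change was 0.06. Of 15 transcription factors and cofactors linked to the fast programme, 2 fell and none rose, against 3.08% and 3.12% of all tested genes. The 15 do not all promote that programme, so such counts do not measure it. Of the 15 estimates 13 were negative, with a median of -0.11, against 6403 of 12219 and -0.01 over all tested genes. Eya1, a cofactor of homeodomain factors, fell by 0.37 (SE 0.10, limma adjusted p = 0.0444), and Nfatc1, a calcineurin-dependent factor known for promoting slow and IIa programmes, fell by 0.33 (SE 0.09, limma adjusted p = 0.0395). Sox6, a repressor of slow genes, gave -0.41 (adjusted p = 0.0723). Eya1 lost its call without any library but KO 2, KO 4 and KO 5 (adjusted p up to 0.102), without trend and robust moderation (0.0525) and after the length correction (0.0532), and Nfatc1 without any library but KO 2, KO 4, KO 5 and WT 1 (up to 0.0892).

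Set against their slow counterparts within each library, all 7 fast genes had a higher mean log2 ratio to the slow gene in KO. With a pseudocount of 1 the difference was 2.13 to 4.59 for 6 of them and 0.0957 for Actn3 to Actn2. Taken as differences of deposited values, the 6 ran from 1.52 (Tnni2 to Tnni1) to 3.28 (Myh4 to Myh7), and Actn3 to Actn2 gave 0.0949. The sizes thus depend on how low values of the slow genes are treated. In neither form did any pair pass after adjustment over the 7 pairs. The log2 ratio of Mylpf to Myl2, the slow regulatory light chain, was 9.68 ± 3.29 in KO and 5.71 ± 1.34 in WT (SD, n = 6 each; exact permutation p = 0.00866, adjusted p = 0.0606). That of Myh4 to Myh7, the slow heavy chain, was 12.5 ± 4.91 in KO and 7.92 ± 1.53 in WT (exact permutation p = 0.0346, adjusted p = 0.0707). Myh7 stood at the floor in KO 5, so the ratio of 20.58 there is set by the pseudocount, and it enters the KO mean and SD. The ratio of Actn3 to Actn2 was 4.21 ± 0.618 in KO and 4.11 ± 0.935 in WT (exact permutation p = 0.818). Without KO 4, the KO library with the highest Myh7 value, every pair but Actn3 to Actn2 passed (exact permutation, adjusted p from 0.0152 to 0.0379). The 13 slow genes in turn had 12 negative estimates and a median change of -1.36, with none called.

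Apart from genotype, the 10 genes fell into sets that varied together between mice. Of 45 pairs, values centred within KO and within WT gave 19 Pearson correlations with a permutation p, adjusted over the 45, at or under 0.05, of which 13 were positive and 6 negative, and 15 also passed by Spearman's rho. Myh1 and Myh2 rose and fell together (Pearson r = 0.945, permutation adjusted p = 0.004; Spearman rho = 0.86, permutation adjusted p = 0.0112; r = 0.821 without KO 5 and WT 4, the 2 libraries farthest from the median; 12 libraries). The troponin and light chain genes formed another set, with r = 0.949 between Tnni2 and Tnnc2 (permutation adjusted p = 0.004; rho = 0.888, permutation adjusted p = 0.0112; r = 0.878 without KO 4 and WT 4). Myl1 varied against Myh1, with r = -0.902 (permutation adjusted p = 0.004; rho = -0.804, permutation adjusted p = 0.0186; r = -0.672 without KO 5 and WT 4). Myh4 varied with Actn3 (r = 0.808, permutation adjusted p = 0.0064; rho = 0.748, permutation adjusted p = 0.0257; r = 0.856 without KO 1 and KO 3). Values of 1 library share its depth, its dissection and its RNA, and the Myh1 and Myh2 transcripts share sequence.

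**Figure D5:**
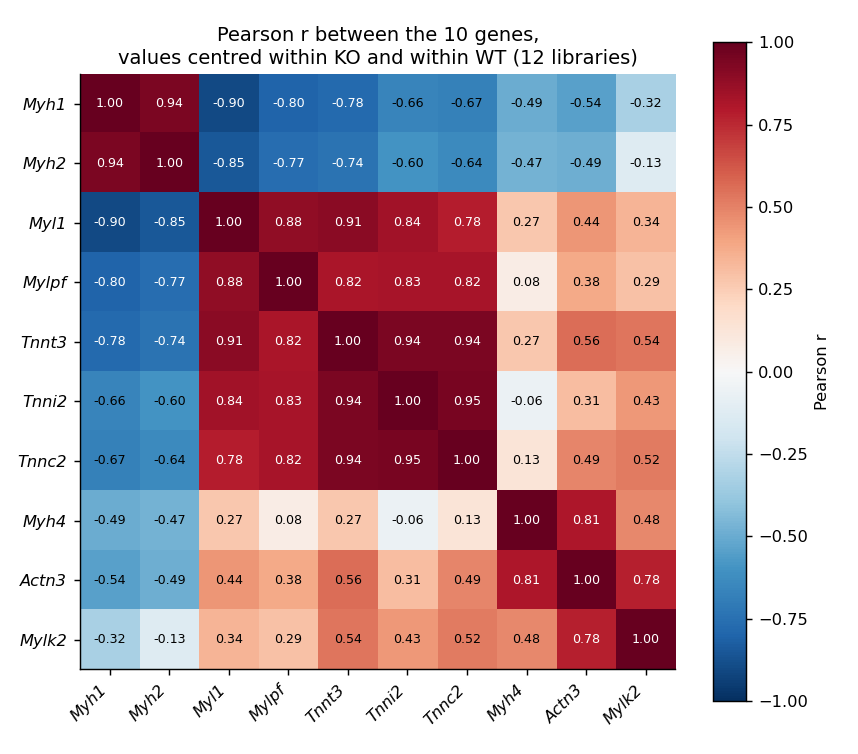
Pearson r between each pair of the 10 genes over 12 libraries, after centring values within KO and within WT; red is positive and blue negative. Light chains and troponins form 1 block, and Myh1 with Myh2 form another with negative r to it. Tnni2 and Tnnc2 did not pass against Myh1 or Myh2 (permutation adjusted p from 0.0581 to 0.0845).

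None of the 10 genes had a relation to the mean of 13 slow-fibre genes that passed adjustment over the 10. The closest by Pearson's r were Myh4 (Pearson r = -0.662, permutation adjusted p = 0.241; Spearman rho = -0.727, permutation adjusted p = 0.142) and Myh2 (r = 0.613, permutation adjusted p = 0.241; rho = 0.622, permutation adjusted p = 0.142), with r = -0.829 and 0.598 without KO 4 and WT 6, over 12 libraries centred within group. The slow mean itself was 9.30 ± 1.08 in KO and 10.75 ± 0.96 in WT (SD, n = 6 each; exact permutation p = 0.039).

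Among all tested genes, those whose values followed Myh2 most closely over the 12 libraries, centred within group, were Atp1b1, a sodium pump subunit gene (r = 0.971), Myom3, which encodes an M-band protein (r = 0.969), and Fxyd6 (r = 0.953). For Myh1 they were Myh2 (r = 0.945), Atp1b1 (r = 0.944) and B3galt1 (r = 0.943). For Myh4 they were the kinase gene Camk2a (r = 0.96), Abcf2 (r = 0.956) and Vcp (r = 0.949), and for Mylk2 they were A430046D13Rik (r = 0.917), the zinc transporter gene Slc39a13 (r = 0.907) and the pyruvate dehydrogenase kinase gene Pdk2 (r = 0.905). These are the highest values over all tested genes and are given as a description. None of these genes passed the test between KO and WT.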

How the data were processed

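The authors deposited 1 table of 24528 genes with log2 values per library. STAR, featureCounts, fastp and the build mm10 come from the submitters' processing notes, and no source used here gives versions, the annotation or the normalization. Every column has a floor of 5.57, and the values have the shape of a variance-stabilizing transformation, which was assumed and which compresses changes of low genes. Its closed form was inverted to scaled reads, and the step between low values (90.1% to 93.9% of those below 8 scaled reads lay within 0.1 of a whole step) was taken as 1 read. Genes with at least 10 estimated reads in 6 libraries entered limma 3.58.1 under R 4.3.3, which took the deposited log2 values with group as the only term, trend and robust moderation, two-sided, Benjamini-Hochberg adjusted over 12219 genes. On simulated data of 12219 genes for KO minus WT, 76 of 100 genes changed by 0.5 and 97 of 100 changed by 1 were recovered, with 9 false calls. Whether these recovery figures hold for the deposited values, in which sets of the 10 genes varied together between mice, was not tested. Shares and ratios used exact permutation tests (smallest p 0.00216), and relations used 100000 resamples within groups. Positions and lengths are from GENCODE M21 (mm10), without a length for 231 tested genes. Alternatives covered scaling, filters, tests, a replicate block, exon length and each library left out. The genes and lists were chosen with earlier results of these data known. Of the lists, called members and up to 4 with the smallest p could be named; like genes were the 3 with the highest r. Each library is a separate mouse per the labels, and the kit does not mark strand.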

Additional observations from a re-analysis of the deposited data

Results flagged for a closer look

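In 48 groups of 6 values, 5 held a library far from the other 5, against about 1 in 20 by chance, and 4 of the 5 were in WT 4. The groups are not independent, since all come from the same 12 libraries and ratios reuse the values of single genes. Myh1 and Myh2 also varied together, as given above, so the flags in WT 4 are not separate observations. Myh1 was 13.22 in WT 4 against 15.20 to 16.20 in the other WT libraries, and Myh2 was 12.51 there against 14.56 to 15.74. Mylpf was 17.41 in WT 4 against 16.67 to 16.90, and the log2 ratio of Myh4 to Myh1 was 7.45 there against 4.17 to 5.16. Tnnc2 was 17.38 in KO 4 against 17.83 to 18.04 in the other KO libraries.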

How the results depend on the processing

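Of 90 estimates for the 10 genes under 9 alternatives that kept all libraries, 89 kept their direction and side of the threshold, and the exception was Tnnt3 at -0.05 with the length correction, which was chosen after seeing the data. Leaving out 1 library gave -0.15 to -0.04 for Myh4, -0.79 to -0.05 for Myh1, -1.84 to -0.93 for Myh2, 1.09 to 2.66 percentage points for the Myh4 share (lowest without WT 5, highest without WT 4), -0.68 to -0.49 for Mylk2, 0.34 to 0.49 for Mylpf, 0.17 to 0.32 for Myl1, -0.02 to 0.11 for Tnnt3 (-0.02 without WT 3 and WT 5) and -0.11 to 0.04 for Actn3 (0.01 without KO 3, 0.04 without WT 4). The count of the 10 genes called ran from 0 to 2 higher and from 0 to 1 lower, and over all genes from 106 to 683 higher (against 381 with all libraries) and from 88 to 833 lower (against 376), highest without KO 2 and lowest without KO 6, and moved by over 1.5 times without KO 1, KO 2, KO 3, KO 6 or any WT library but WT 4. The KO minus WT differences in log2 ratio, with a pseudocount of 1, also moved when 1 library was left out. They ran from -0.0897 to 0.742 for Myh4 to Myh1 (-0.0897 without KO 5), 0.791 to 1.81 for Myh4 to Myh2 and 0.88 to 1.17 for Myh1 to Myh2. For fast to slow pairs they ran from 2.98 to 5.53 for Myh4 to Myh7, 2.76 to 4.57 for Mylpf to Myl2 and 2.01 to 3.20 for Myl1 to Myl3. For the troponins they ran from 1.82 to 2.78 for Tnnt3 to Tnnt1, 1.54 to 2.62 for Tnni2 to Tnni1 and 2.14 to 3.32 for Tnnc2 to Tnnc1. For Actn3 to Actn2 they ran from -0.11 to 0.408 (-0.11, -0.0553 and -0.0787 without KO 5, WT 3 and WT 6). The library share of the 10 genes differed by -0.146 to 0.502 percentage points (-0.0274, -0.00103 and -0.146 without KO 5, WT 5 and WT 6). Same-numbered KO and WT libraries correlated by over 0.1 in 2 of 6 pairs, with r from -0.36 to 0.291. Of the 6 KO libraries, 2 correlated best with the WT library of their own number. Correlations of this kind cannot decide whether the numbers pair mice, for example by litter or cage. With the replicate block, 355 genes were higher and 452 lower, and Mylk2 kept its call (adjusted p = 0.0121), and Myh8 (0.0707), Pdlim5 (0.0715) and Adipoq (0.05001) did not pass. The difference of 1.03 in the Myh1 to Myh2 ratio gave an adjusted p of 0.188 in the exact paired test with that block. That test only flips signs within 6 pairs, so its smallest possible p is much larger than the 0.00216 of the unpaired test. It can hardly pass after adjustment over the 3 heavy chain ratios, and so cannot decide whether the call holds under pairing. The causes of these shifts were not tested. The 10 genes had 1962 or more estimated reads in every library, so counting error is small beside the spread between mice.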
